A study of Mus musculus with 6 samples.

Results

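The genes described here are 47 nucleolar ribosome assembly factors, a list of named genes looked up by Ensembl identifier in a table of 55487 genes. They were placed in 4 steps. The step of small nucleolar ribonucleoproteins (snoRNPs) held 10, of which 3 are nucleolar chaperones. The small subunit processome and its maturation held 17, large subunit assembly 18 and export 2. All 47 were found and all 47 had enough counts to be tested, with a lowest normalized count of 296 in any library. RNA was sequenced from bone marrow of irradiated CD45.1(+) recipients that had been given 1000 leukemic bone marrow cells from CD45.2(+) Mx1-Cre Brd9fl/fl donors carrying MLL-AF9, an oncogenic fusion that gives rise to acute myeloid leukemia. Both groups carried the same floxed alleles and the same fusion, on a C57BL/6 background. From the day after transplantation the recipients received 3 doses of either PBS or pIpC at 20 mg/kg, and the marrow was collected 10 days after injection (3 PBS and 3 pIpC libraries). pIpC resembles viral double-stranded RNA. It raises interferon, which in turn switches on Cre recombinase from the Mx1 promoter, so interferon exposure and Cre activity cannot be told apart in this design. The labels describe GFP+ cells and lethal irradiation, whereas the methods of the study state c-Kit+ cells and sublethal irradiation. The labels do not say whether each library came from a separate recipient, so p-values measure the spread between these libraries.

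Ribosomes are built in the nucleolus, where RNA polymerase I makes one long precursor that holds most of the ribosomal RNA. SnoRNPs modify the precursor, box C/D particles by methylation of ribose and box H/ACA particles by conversion of uridine to pseudouridine. The small subunit processome assembles on the start of the precursor around the U3 snoRNA, while a separate series of factors, remodelled by RNA helicases and AAA ATPases, folds the large subunit before it is exported to the cytoplasm. Demand for this pathway is high in growing and dividing cells, and many of its genes are known targets of the transcription factor MYC.

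The libraries held 19277439 to 22378154 recovered reads on genes in the PBS group and 22348517 to 23586722 in the pIpC group. Values of single libraries are given in the order of replicates 1, 2 and 3. Brd9, the floxed gene, had normalized counts of 1926.8, 1946.4 and 1631.9 in PBS libraries and of 2036.0, 2263.0 and 2011.4 in the libraries labelled pIpC. This log2 fold change of 0.20 ± 0.13 (SE) did not pass (limma, adjusted p = 0.259), and the exact two-sided permutation test gave p = 0.1, the smallest that 3 against 3 libraries allow. Whole-gene counts include exons outside the floxed part, so recombination could not be checked, and the treated group is called pIpC after its label. The libraries also differed in their cells. Summed normalized counts of 15 neutrophil maturation markers ranged from 28215 to 54426 in PBS and from 2066405 to 2132992 in pIpC libraries, with 15 of 15 higher. The sums of 11 MLL-AF9 self-renewal genes were 36213 to 44966 and 14110 to 14620, with 9 lower and 1 higher, and Hoxa9, a gene that MLL fusions keep active, had a mean of 5130 in PBS and 256 in pIpC. Erythroid markers were higher in 12 of 12 and B cell markers in 11 of 11. Xist, the RNA that coats an inactive X chromosome, had a mean of 46.6 in PBS and 21515 in pIpC libraries. Xist separated the same groups as the treatment. What lies behind its difference was not tested and cannot be told apart from treatment in any assembly factor. The 10 most counted genes took 5.55 to 5.85% of the reads in PBS and 11.64 to 11.97% in pIpC libraries. In bulk RNA, fewer cells of a type and less RNA per cell cannot be told apart, and the part of cell composition in the results below was not tested.

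Messenger RNAs of many assembly factors were lower in the pIpC libraries. By step, 3 of 10 snoRNP genes, 11 of 17 small subunit genes, 12 of 18 large subunit genes and 2 of 2 export genes fell. Of the 47 genes, 28 fell and none rose (limma on log2(normalized count + 1), Benjamini-Hochberg adjusted p under 0.1), against 20.4% of all 15020 genes tested that fell and 25% that rose. On the recovered reads 31 fell and 0 rose both by edgeR's quasi-likelihood test, where 22.2% of all genes fell, and by DESeq2, where 24.2% fell. Under quantile normalization 34 fell, beside 27.2% of all genes. A fall of at least 1.5-fold was found for 18 of the 47, against 17% of all genes. The fitted change was below 0 in 45 of the 47, beside 49.2% of all genes, and the median log2 fold change was -0.54, beside 0.015 over all genes tested. In 30 of the 47 genes all 3 pIpC values lay below all 3 PBS values, which held for 26.3% of all genes, and in no assembly factor did all 3 lie above, which held for 30.5%. Together the 47 genes took 0.59, 0.628 and 0.629% of the reads in PBS libraries and 0.443, 0.355 and 0.361% in pIpC libraries. A share also falls where other genes take more of the reads, as the most counted genes did in pIpC libraries. The summed normalized counts were 114240, 122539 and 151239 in PBS and 102837, 81003 and 82372 in pIpC libraries. The groups overlapped neither in the share nor in this sum. Without pIpC replicate 2 or without pIpC replicate 3 the count of falls was 16 in each case, and without PBS replicate 3 it was 39, with 1 rise. Over all genes tested, 4650, 4750 and 9783 passed in either direction in these fits, in that order, against 6808 with all libraries. The share of all genes that fell was not counted without pIpC replicate 2 or 3.

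**Figure D1:**
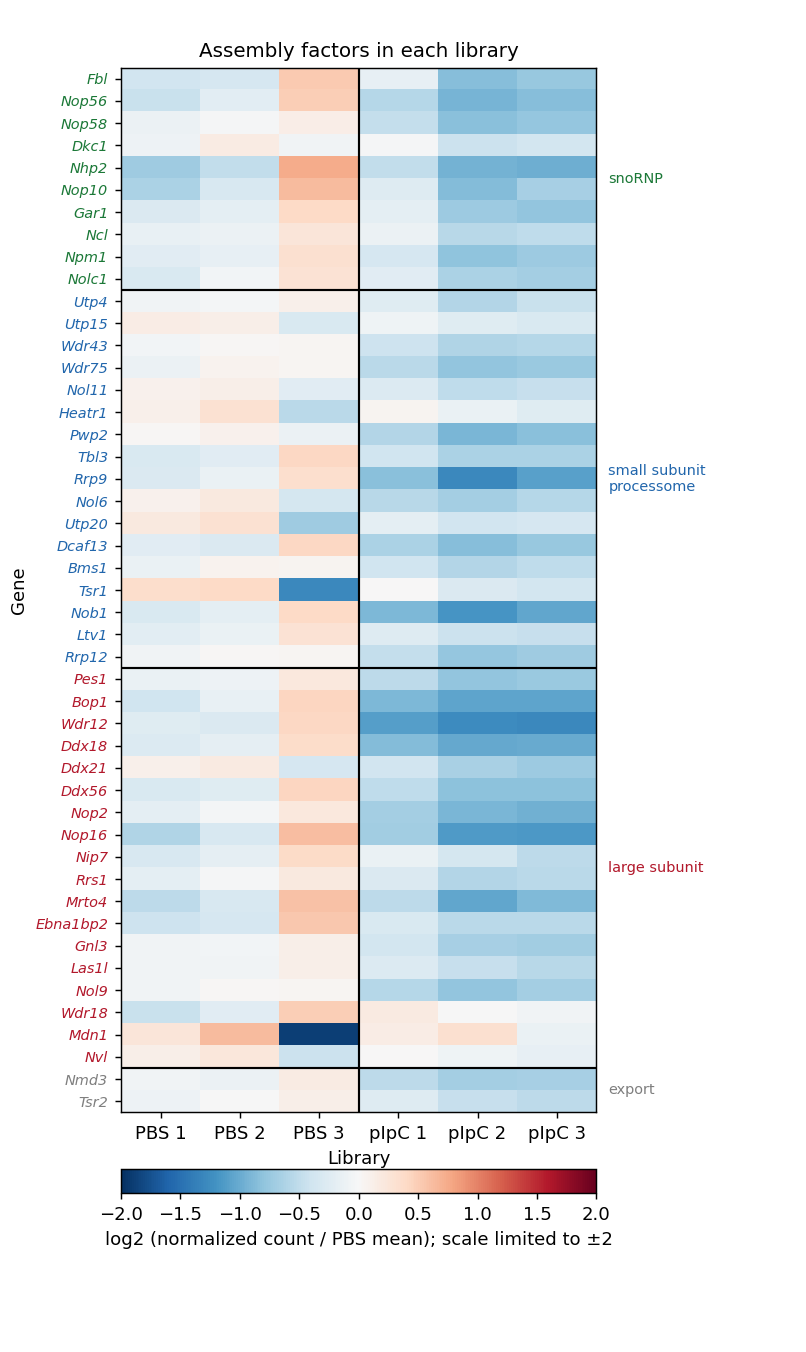
Heat map of the 47 assembly factors (rows, grouped by step) in the 6 libraries (columns). Colour gives log2 of the normalized count over the PBS mean, blue below and red above. PBS 3 was the highest library for 34 of the 47 genes, and pIpC 1 was the highest pIpC library for 46.

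PBS replicate 3 stood apart from the other PBS libraries, and this touches the values of many assembly factors. The chi-square statistic per gene was 6.856 between PBS replicates 1 and 2 but 216.6 and 188.9 between each of them and PBS replicate 3. The deviation followed the coding length of the gene. Among assembly factors with under 1 kb of coding sequence, the median log2 ratio of PBS replicate 3 to the mean of the other PBS libraries was 0.90 (10 genes). It was 0.50 at 1 to 2 kb (16 genes), 0.06 at 2 to 3 kb (15 genes) and -0.62 over 3 kb (6 genes). Across all tested genes the medians of the same classes were 0.54, 0.00, -0.36 and -0.83, so the assembly factors had higher medians in every class. Spearman's rho between coding length and this ratio was -0.725 over the 47 genes, which share the same 3 libraries, and -0.551 over 12467 genes; these are descriptions across genes, which are not independent replicates. Why this library differed was not tested. Counts and medians of each step, and genes whose change turned on this library, are therefore given with and without it. Within the pIpC group, replicate 1 was above the mean of replicates 2 and 3 in all 47 genes, by a median log2 ratio of 0.24, beside 0.001 over all tested genes with a coding length. The summed B cell markers also separated these libraries, at 40620, 10605 and 20050.

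**Figure D2:**
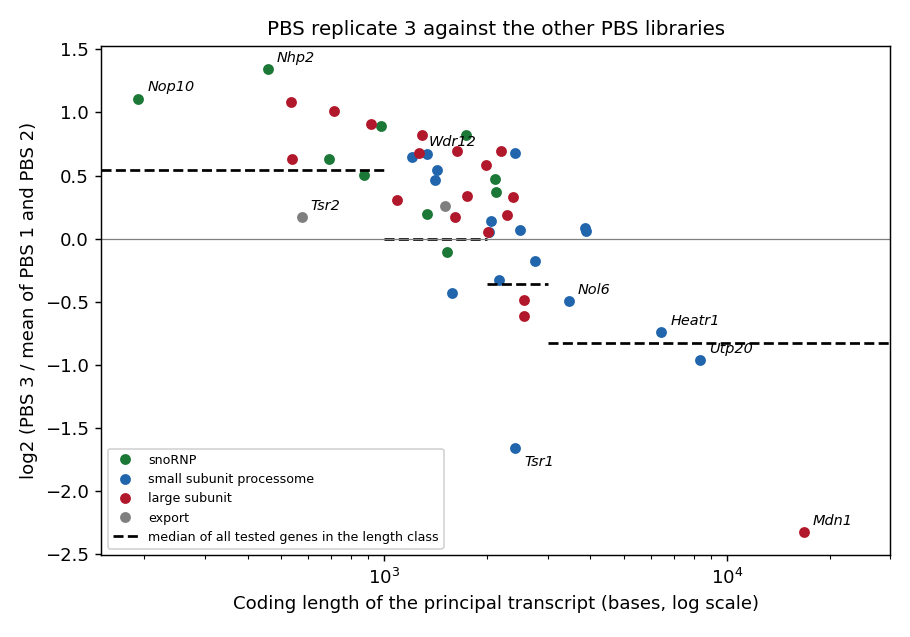
Log2 ratio of PBS replicate 3 to the mean of PBS replicates 1 and 2 (vertical axis) against the coding length of the principal transcript in bases (horizontal axis, log scale) for the 47 assembly factors, coloured by step. Dashed lines are the medians of all tested genes in 4 length classes. Short genes such as Nop10 lie above 0 and the longest, Mdn1, is at -2.32.

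All 28 genes that fell with 6 libraries also fell without PBS replicate 3, where 30.6% of all genes fell and 34.5% rose. A further 11 genes passed only without it, namely Dkc1, Heatr1, Ltv1, Mdn1, Mrto4, Nolc1, Nvl, Tbl3, Tsr1, Utp15 and Utp20. The median log2 fold change was then -0.45. When each library's trend with transcript length was removed instead, 36 of the 47 fell, beside 24.5% of all genes. This fit used the length of the whole transcript, whereas the deviation of PBS replicate 3 was described by coding length. These lengths differ widely for some genes, such as Nmd3 with 9135 transcript bases and 1509 coding bases. The fit is therefore not equivalent to leaving that library out.

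**Figure D3:**
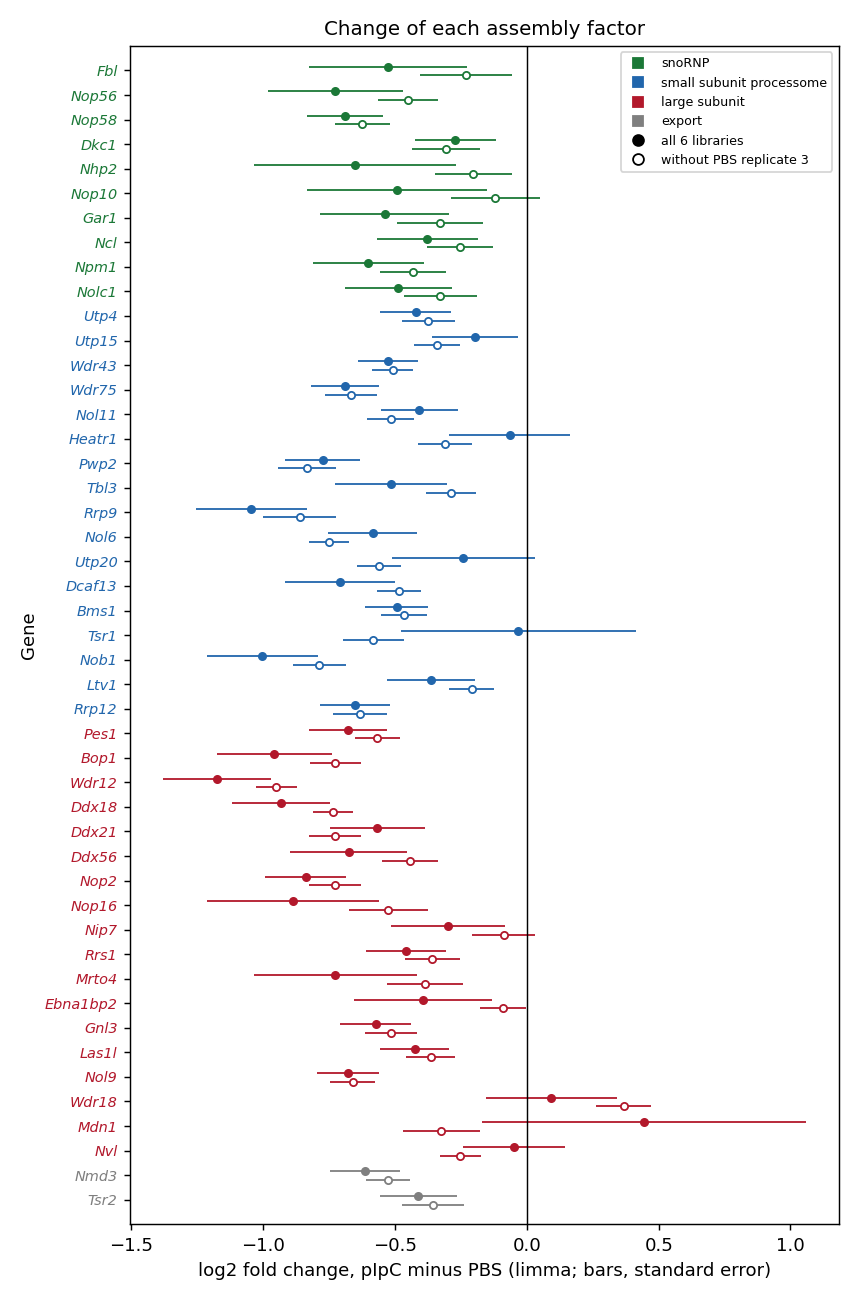
Log2 fold change (pIpC minus PBS, limma) of each assembly factor with its standard error, for all 6 libraries (filled) and without PBS replicate 3 (open), coloured by step. Of the 47 filled points, 45 lie below 0. The open points have shorter error bars for genes such as Mdn1, whose standard error was 0.62 with all libraries and 0.15 without PBS replicate 3.

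The snoRNP step includes the nucleolar chaperones Npm1, Ncl and Nolc1. Of the core proteins of the particles, 2 of 3 fell in box C/D and 0 of 4 in box H/ACA. In the whole step 3 of 10 genes fell (Nop56, Nop58 and Npm1), beside 20.4% of all genes tested, and the median log2 fold change was -0.53. Without PBS replicate 3 the count was 5 of 10, beside 30.6% of all genes, and the median was -0.32. Nop58, a scaffold protein of box C/D particles, had normalized counts of 4516.4, 4834.2 and 5348.2 in PBS and 3536.1, 2757.5 and 2859.4 in pIpC libraries. The groups did not overlap, and Nop58 fell by 0.69 ± 0.14 (SE) on the log2 scale (limma, adjusted p = 0.01; log2 fold change -0.62 without PBS replicate 3). Its partner scaffold Nop56 was 4275.0, 5035.6 and 8235.1 in PBS and 3940.3, 3053.8 and 3251.1 in pIpC libraries, with a log2 fold change of -0.73 ± 0.26 (limma, adjusted p = 0.0664) that was -0.45 (0.00872) without PBS replicate 3. The call on Nop56 was lost without any one of the pIpC libraries, with an adjusted p of up to 0.2. Fbl, the methyltransferase of the same particles, was 3294.7, 3412.1 and 6223.0 against 3836.6, 2387.7 and 2544.2. The groups overlapped for Fbl, because pIpC replicate 1 lay above PBS replicates 1 and 2, and it did not pass (log2 fold change -0.53, limma adjusted p = 0.212; -0.23 and 0.285 without PBS replicate 3).

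None of the 4 box H/ACA proteins fell, and the groups overlapped in each. Dkc1, the pseudouridine synthase, was 2350.8, 2821.0 and 2400.3 in PBS and 2489.2, 1868.7 and 1946.6 in pIpC libraries (log2 fold change -0.27, limma adjusted p = 0.216). Its small partner Nhp2 was 1422.4, 1640.8 and 3885.0 against 1652.8, 1202.5 and 1174.9, and the PBS mean of 2316.1 ± 1363.1 (SD, n = 3) rested on PBS replicate 3. Without that library the log2 fold change of Nhp2 moved from -0.65 to -0.20 (limma, adjusted p = 0.258), that of Nop10 from -0.49 to -0.12 (adjusted p = 0.571) and that of Gar1 from -0.54 to -0.33 (adjusted p = 0.112). Dkc1 moved the other way, to -0.31 (limma, adjusted p = 0.0713). Nhp2, Nop10 and Gar1 have under 1 kb of coding sequence and were highest in PBS replicate 3, while Dkc1, with 1527 coding bases, was highest in PBS replicate 2.

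Npm1 and Ncl, nucleolar chaperones, had the highest counts of the 47. Npm1, nucleophosmin, was 17447.8, 18224.5 and 25318.8 in PBS and 16044.8, 11700.4 and 12292.5 in pIpC libraries. It fell by 0.60 ± 0.21 on the log2 scale (limma, adjusted p = 0.0645; log2 fold change -0.43 without PBS replicate 3), a call lost without pIpC replicate 2 (0.221) or pIpC replicate 3 (0.202). Ncl, nucleolin, overlapped between the groups, at 20087.6, 20598.1 and 26273.9 against 20688.8, 15192.5 and 15772.7 (log2 fold change -0.38, adjusted p = 0.17). Nolc1, a chaperone of snoRNPs, had a log2 fold change of -0.49 (adjusted p = 0.104) and fell without PBS replicate 3 (-0.33, adjusted p = 0.0675). Levels were also taken per kilobase of coding length and scaled to the same number of reads (RPKM). The level of Npm1 was then 1099 in PBS and 663 in pIpC libraries and that of Ncl was 501 and 353. These were the highest and second highest of the 47 in both groups, also per kilobase of all exons. This scale, too, falls where other genes take more reads. By normalized counts the pIpC mean was 65.7% of the PBS mean for Npm1 and 77.1% for Ncl. On the coding scale Nop10, Nhp2, Fbl, Nop58 and Nop56 followed in PBS, so that the 7 highest levels were all of snoRNP proteins or chaperones. This did not hold per kilobase of all exons. There Pes1 and Ddx21 ranked 6 and 7 in PBS, and Fbl and Nop58 ranked 8 and 23. On the coding scale Mdn1 (5.11 in PBS) and Utp20 (7.93 in PBS) had the lowest levels. Ncl and Npm1 alone took 0.194 to 0.215% of the reads in PBS and 0.118 to 0.158% in pIpC libraries. Their summed normalized counts were 37535 to 51593 in PBS and 26893 to 36734 in pIpC libraries.

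In the small subunit processome 11 of 17 genes fell with all libraries, beside 20.4% of all genes tested. Once PBS replicate 3 was left out 17 of 17 fell, beside 30.6% of all genes. The median log2 fold change of the processome was -0.52 in both fits. The sum of its 17 genes was 22656, 24264 and 23357 normalized counts in PBS and 18067, 15449 and 15892 in pIpC libraries, so that PBS replicate 3 lay between the other PBS libraries and the groups did not overlap.

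The UTP-A complex, which binds the start of the precursor and is also needed for its transcription, held 6 of these genes, of which Wdr75, Wdr43, Utp4 and Nol11 fell. Wdr75 was 1243.3, 1413.0 and 1389.7 in PBS and 926.2, 781.6 and 803.6 in pIpC libraries, a log2 fold change of -0.69 ± 0.13 (limma, adjusted p = 0.00605). Wdr43 was 2555.8, 2693.4 and 2722.8 against 2002.1, 1742.0 and 1795.7 (-0.53 ± 0.11, adjusted p = 0.0112). Neither gene had overlapping groups, and their PBS libraries lay close together. Utp4 (-0.42, adjusted p = 0.0478) and Nol11 (-0.41, adjusted p = 0.0688) also fell, but both calls were lost without PBS replicate 2, pIpC replicate 2 or pIpC replicate 3, and that of Nol11 also without PBS replicate 1, with adjusted p of up to 0.182 and 0.219. Heatr1, a long scaffold of the complex, was 1892.2, 2190.4 and 1222.2 in PBS and 1838.4, 1605.1 and 1498.8 in pIpC libraries. PBS replicate 3 was the lowest of the 6 libraries for Heatr1, which did not pass with it (log2 fold change -0.06, adjusted p = 0.843) and fell without it (-0.31, adjusted p = 0.0274). Utp15 behaved likewise (-0.20, adjusted p = 0.376; -0.34, adjusted p = 0.00841 without PBS replicate 3).

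In the UTP-B complex, Pwp2 fell by 0.77 ± 0.14 on the log2 scale (limma, adjusted p = 0.0059), from 920.6, 959.6 and 831.8 in PBS to 602.8, 478.1 and 507.7 in pIpC libraries. Tbl3 was 934.4, 985.9 and 1537.9 against 874.3, 743.8 and 744.6. Its groups did not overlap, but it did not pass with all libraries (-0.52, adjusted p = 0.104) and fell without PBS replicate 3 (-0.29, adjusted p = 0.0278). The exons of Tbl3 share 2122 of 5686 bases with Noxo1 on the other strand, a gene with 10.2 to 42.5 normalized counts, and the libraries are unstranded per the labels.

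Rrp9 (ENSMUSG00000041506, chr9:106475963-106485424), the protein specific to the U3 particle, had the largest fall of the small subunit genes in the limma fit; it was exceeded by Pwp2 with the transcript length trend removed (-0.93 against -0.86) and by Nob1 under quantile normalization (-1.077 against -1.074). It was 631.6, 706.5 and 976.6 in PBS and 432.2, 314.7 and 363.6 in pIpC libraries, 48.0% of the PBS mean (log2 fold change -1.05 ± 0.21, limma adjusted p = 0.0087). All pIpC values lay below all PBS values, and the fall was 0.86 on the log2 scale without PBS replicate 3 (adjusted p = 0.000713). Bms1, a GTPase of the processome, was 2169.1, 2502.1 and 2470.4 against 1804.5, 1588.7 and 1673.9 (-0.49 ± 0.12, adjusted p = 0.0185). Nol6 (-0.58, adjusted p = 0.0344) and Dcaf13 (-0.71, adjusted p = 0.0361), structural components of the processome, also fell. Both calls were lost without pIpC replicate 2 or 3, and that of Nol6 also without PBS replicate 2, with adjusted p of up to 0.128 for Nol6 and 0.13 for Dcaf13. Utp20, a very long scaffold, was 1541.8, 1663.0 and 822.7 in PBS and 1168.7, 1025.8 and 1066.6 in pIpC libraries, so that PBS replicate 3 alone lay below the pIpC libraries. Its log2 fold change was -0.24 (adjusted p = 0.518) with all libraries and -0.56 (adjusted p = 0.000393) without PBS replicate 3.

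Of the 4 factors that complete the small subunit, Nob1 and Rrp12 fell. Nob1 (ENSMUSG00000003848, chr8:107412486-107425051), the endonuclease that makes the final cut in small subunit RNA, was 1035.7, 1123.5 and 1690.7 in PBS and 687.7, 568.1 and 624.7 in pIpC libraries, 48.8% of the PBS mean (log2 fold change -1.003 ± 0.209, limma adjusted p = 0.00966; -0.79 without PBS replicate 3). Rrp12, an export factor of small subunit precursors, was 1091.0, 1170.1 and 1178.1 against 825.4, 669.2 and 701.1 (-0.65 ± 0.13, adjusted p = 0.00837). The groups did not overlap for either gene. The ratio of Nob1 to Ltv1, another factor of the same precursor, was 0.862, 0.888 and 0.996 in PBS and 0.589, 0.554 and 0.618 in pIpC libraries. This ratio was chosen after its values were seen and was not tested. Ltv1 itself had a log2 fold change of -0.36 (adjusted p = 0.133) and fell without PBS replicate 3 (-0.21, adjusted p = 0.062). Tsr1, which resembles a GTPase and binds the same precursor, was 915.4, 950.5 and 296.5 in PBS and 727.6, 590.5 and 561.8 in pIpC libraries. PBS replicate 3 was lowest, at a log2 ratio of -1.65 to the mean of the other PBS libraries, beside a median of 0.06 for assembly factors of 2 to 3 kb. The log2 fold change of Tsr1 was -0.03 (adjusted p = 0.96) with all libraries and -0.58 (adjusted p = 0.00242) without PBS replicate 3. Tsr1 shares 1240 of 3837 exon bases with Srr on the other strand, which had 75.8 to 217 normalized counts and was also lowest in PBS replicate 3.

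**Figure D4:**
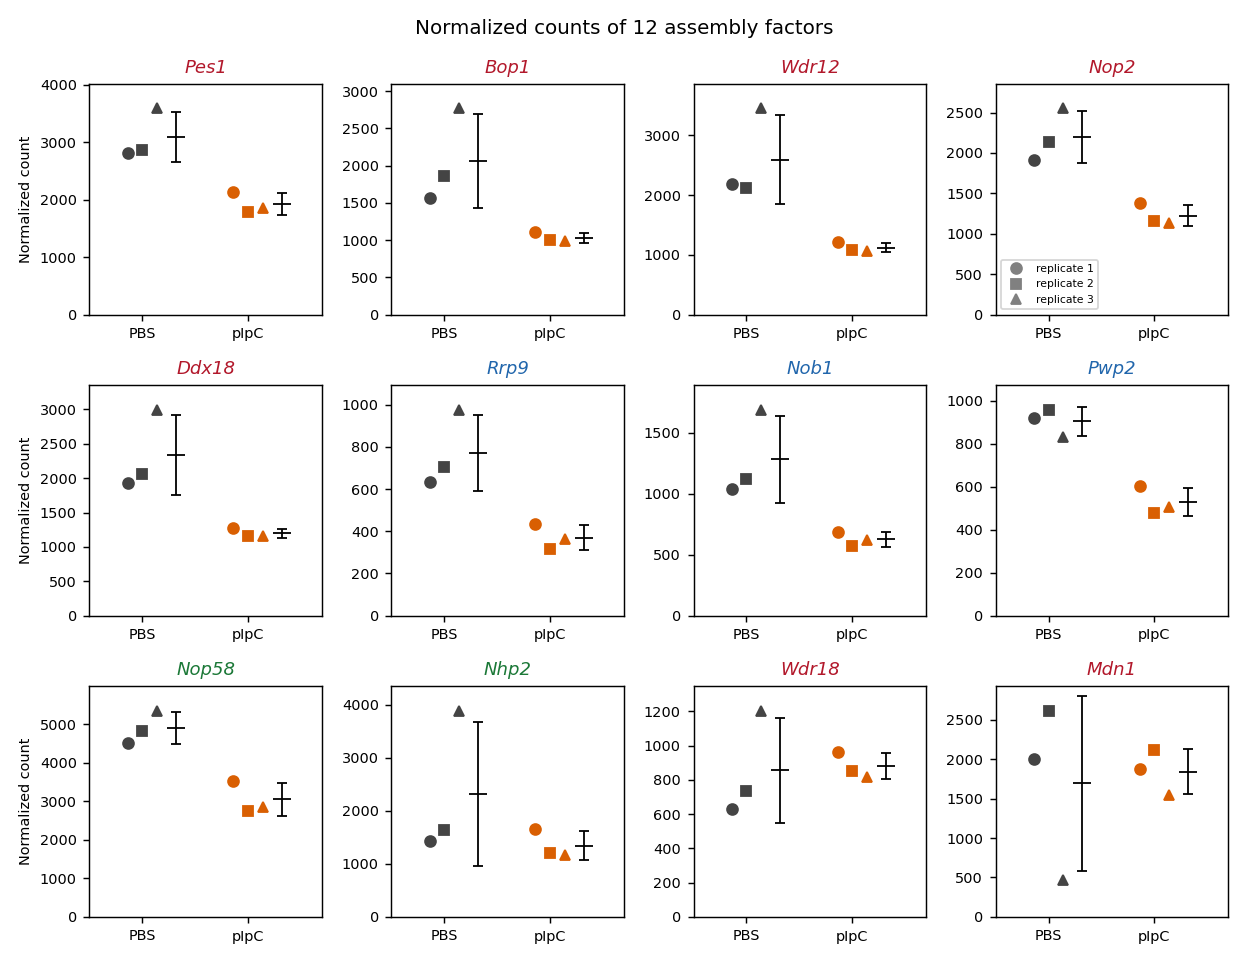
Normalized counts (vertical axes, from 0) of 12 assembly factors in each library, with PBS in grey and pIpC in orange, symbols by replicate number, and the mean ± SD (n = 3) beside each group. The titles are coloured by step. The groups do not overlap for the first 9 genes, from Pes1 to Nop58, and overlap for Nhp2, Wdr18 and Mdn1.

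In the large subunit, 12 of 18 genes fell, beside 20.4% of all genes tested, the median log2 fold change being -0.62. Without PBS replicate 3 the counts were 15 lower and 1 higher, beside 30.6% and 34.5% of all genes, and the median was -0.48. The PeBoW complex, whose subunits Pes1, Bop1 and Wdr12 are needed to process the precursor of the large subunit RNA, fell in full. Wdr12 (ENSMUSG00000026019, chr1:60069785-60098645, GRCm38) had the largest fall of the 47 genes, from 2191.6, 2124.6 and 3450.4 in PBS to 1205.7, 1087.1 and 1060.8 in pIpC libraries, 43.2% of the PBS mean (log2 fold change -1.18 ± 0.21, limma adjusted p = 0.0047). Bop1 was 1561.7, 1865.5 and 2769.2 against 1111.8, 995.1 and 992.1 (-0.96 ± 0.22, adjusted p = 0.014). Pes1 was 2812.8, 2873.6 and 3591.9 against 2141.8, 1780.8 and 1853.7 (-0.68 ± 0.15, adjusted p = 0.0114). No PeBoW subunit had overlapping groups, and each fell without PBS replicate 3 (log2 fold changes of -0.95 for Wdr12, -0.73 for Bop1 and -0.57 for Pes1). The count of Wdr12 relative to Pes1 did not overlap between groups, at 0.779, 0.739 and 0.961 in PBS and 0.563, 0.610 and 0.572 in pIpC libraries. The ratio of Bop1 to Pes1 overlapped between groups, at 0.555, 0.649 and 0.771 against 0.519, 0.559 and 0.535. These ratios were chosen after their values were seen and carry no test.

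The 3 DEAD-box RNA helicases fell. Ddx18 was 1933.8, 2056.8 and 2996.7 in PBS and 1276.5, 1151.4 and 1163.3 in pIpC libraries (log2 fold change -0.93 ± 0.19, limma adjusted p = 0.0082), without overlap. Ddx21, which also binds snoRNAs and ribosomal DNA, was 5440.4, 5768.5 and 4010.6 against 3897.4, 3225.5 and 3076.0 (-0.57, adjusted p = 0.0484), and Ddx56 had a log2 fold change of -0.68 (adjusted p = 0.0531; -0.445 and 0.00627 without PBS replicate 3). Both of the latter calls were lost without pIpC replicate 2 or pIpC replicate 3, and that of Ddx21 also without PBS replicate 1 or 2, with adjusted p of up to 0.169 for Ddx21 and 0.166 for Ddx56. The 3 sequence copies of Ddx18 in the annotation held 0.789% of its mean count. Loss of reads that match both Ddx18 and a copy was not tested.

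Of the 7 pre-60S factors, Nop2, Nop16, Rrs1 and Gnl3 fell. Nop2, a methyltransferase of large subunit RNA that is used as a marker of proliferation, was 1913.0, 2137.8 and 2551.9 in PBS and 1377.3, 1163.7 and 1136.2 in pIpC libraries (log2 fold change -0.84 ± 0.15, limma adjusted p = 0.00564). Gnl3, nucleostemin, was 2458.1, 2491.0 and 2785.0 against 1989.1, 1633.7 and 1594.6 (-0.57 ± 0.14, adjusted p = 0.0161). The groups were apart for both genes, and the calls held with each library left out. Nop16 fell by 0.89 on the log2 scale (adjusted p = 0.0744; log2 fold change -0.53 and 0.0149 without PBS replicate 3) and Rrs1, which helps to bring in the 5S particle, by 0.46 (adjusted p = 0.0546). These calls were lost without PBS replicate 2, pIpC replicate 2 or pIpC replicate 3, and that of Nop16 also without pIpC replicate 1, with adjusted p of up to 0.203 and 0.187. The remaining genes were short and highest in PBS replicate 3. Mrto4, a placeholder for a ribosomal stalk protein, was 1123.9, 1299.7 and 2447.8 against 1134.8, 788.7 and 880.9 (-0.73, adjusted p = 0.111) and fell without that library (-0.39, adjusted p = 0.0462). Nip7 and Ebna1bp2 passed in neither fit, at log2 fold changes of -0.30 and -0.39 with all libraries (adjusted p = 0.319 and 0.279) and -0.09 in each without PBS replicate 3 (0.557 and 0.403).

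The factors that process the second internal spacer between the large subunit RNAs were split. Nol9, a polynucleotide kinase, was 1373.1, 1469.7 and 1475.7 in PBS and 968.1, 835.7 and 897.4 in pIpC libraries, a fall of 0.68 ± 0.12 on the log2 scale (limma, adjusted p = 0.00446). Las1l, the endonuclease that acts with it, fell by 0.43 (adjusted p = 0.0434), a call lost without pIpC replicate 2 (0.152) or pIpC replicate 3 (0.167). Wdr18, which belongs to the complex that joins these enzymes to the late large subunit particle, did not follow them. It was 629.0, 733.8 and 1204.1 in PBS and 964.1, 854.1 and 818.1 in pIpC libraries, with a log2 fold change of 0.09 (adjusted p = 0.793). Without PBS replicate 3 all pIpC values lay above the remaining PBS values and Wdr18 rose by 0.37 on the log2 scale (adjusted p = 0.0145), the 1 rise among the 47. Relative to Nol9, Wdr18 stood at 0.458, 0.499 and 0.816 in PBS and at 0.996, 1.022 and 0.912 in pIpC libraries, a ratio also chosen after its values were seen. With the transcript length trend removed the sign of the Wdr18 change was the opposite (-0.065, adjusted p = 0.88).

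The AAA ATPases, which strip factors from large subunit particles, did not pass with all libraries. Mdn1, with 16746 coding bases the longest of the 47, was 2005.6, 2616.5 and 461.7 in PBS and 1871.4, 2118.0 and 1544.3 in pIpC libraries. PBS replicate 3 alone held its PBS mean down, and the log2 fold change was 0.45 ± 0.62 (limma, adjusted p = 0.597) with it and -0.32 ± 0.15 (adjusted p = 0.0852) without it. Nvl, at 1606.7, 1729.8 and 1090.9 against 1490.1, 1392.6 and 1320.9, had a log2 fold change of -0.05 (adjusted p = 0.86) and fell without PBS replicate 3 (-0.25, adjusted p = 0.0211).

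Both export genes fell. Nmd3, which ties the finished large subunit to the export receptor, was 1037.4, 1008.1 and 1226.7 in PBS and 760.5, 681.5 and 687.5 in pIpC libraries (log2 fold change -0.61 ± 0.13, limma adjusted p = 0.0113). Tsr2, an escort of a small subunit ribosomal protein, was 394.5, 421.1 and 458.3 against 353.3, 308.6 and 295.9 (-0.41 ± 0.15, adjusted p = 0.0692). Neither had overlapping groups. The call on Tsr2 was lost without PBS replicate 2, pIpC replicate 2 or pIpC replicate 3 (adjusted p = 0.14, 0.209 and 0.225), while that on Nmd3 held with each library left out. Tsr2, Las1l and Dkc1 lie on the X chromosome. The groups also differed in Xist, at a mean of 46.6 in PBS and 21515 in pIpC, whose part in these values was not tested.

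Of the 28 genes that fell, 16 kept their call with each of the 6 libraries left out in turn. They were Nop58 among the snoRNP genes; Wdr43, Wdr75, Pwp2, Rrp9, Bms1, Nob1 and Rrp12 of the small subunit; Pes1, Bop1, Wdr12, Ddx18, Nop2, Gnl3 and Nol9 of the large subunit; and Nmd3.

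Assembly factors outside the 47 were taken from a list of further genes in 5 roles, written from general knowledge, of which 104 were found, 1 was not matched and 103 were tested. Of these 45 fell and 1 rose, beside 20.4% of all genes that fell and 25% that rose, the median log2 fold change being -0.43. Without PBS replicate 3 the counts were 66 and 2, beside 30.6% and 34.5%, and the median was -0.31. Without pIpC replicate 2 or pIpC replicate 3 the number that fell was 21. Calls over all genes tested, in either direction, also dropped there, to 4650 and 4750 from 6808. The share of all genes that fell was not counted in these fits. In the snoRNP role, 6 of 10 fell (7 without PBS replicate 3), from Nufip1, a snoRNP assembly protein (-1.26 ± 0.28, limma adjusted p = 0.0133), to Znhit3, which did not pass (-0.16, adjusted p = 0.605). In the small subunit role, 18 of 37 fell (24 without PBS replicate 3), led by Rrp36 (-1.29 ± 0.20, adjusted p = 0.00262), while Utp23 was at 0.13 (adjusted p = 0.581). Large subunit factors fell in 15 of 33 (25 without PBS replicate 3), led by Rrp15 (-1.15 ± 0.23, adjusted p = 0.00836), and Senp3, a SUMO protease that acts on the complex of Wdr18, was the 1 that rose (0.39 ± 0.10, adjusted p = 0.0277). In export and cytoplasmic release 1 of 10 fell, a smaller share than the 20.4% of all genes, and the median was -0.33; without PBS replicate 3 these were 4 of 10 and -0.10. The ends of this group were Rsl24d1 (-0.71, adjusted p = 0.115; -0.35 and 0.0106 without PBS replicate 3) and Xpo1, the export receptor (0.20, adjusted p = 0.39), neither of which passed with all libraries. The RNA exosome, which trims precursor RNA, fell in 5 of 13 with a median of -0.26 (6 of 13 and 0.02 without PBS replicate 3), led by Exosc5 (-1.41 ± 0.30, adjusted p = 0.0104), and its helicase Mtrex was at 0.29 (adjusted p = 0.253). The low counts of Nufip1, Rrp36, Rrp15 and Exosc5 in pIpC libraries did not overlap PBS, and each fell without PBS replicate 3 (log2 fold changes of -0.94, -1.08, -0.90 and -1.05).

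Myc, whose protein binds many of these genes, was 2666.6, 2582.1 and 4145.3 in PBS and 1834.4, 1726.6 and 1670.0 in pIpC libraries, and fell by 0.81 ± 0.20 on the log2 scale (limma, adjusted p = 0.0193; 0.59 without PBS replicate 3). The 15 proliferation markers were mixed, with 7 higher and 3 lower and a summed level of 92274 to 102574 in PBS and 109960 to 113848 in pIpC libraries. Split after their values were seen, the 7 replication genes (Mcm2 to Mcm7 and Pcna) were all below 0, with 3 lower, or 6 without PBS replicate 3, whereas of the 8 mitotic and cyclin genes 7 were higher, or 8 without PBS replicate 3. The MYC and MAX dimer binds the palindromic E-box CACGTG, which reads the same on both strands, and the letters were searched in RefSeq promoters of GRCm38.p6 from 250 bases before to 50 after the start of each gene. Promoters were held for 39 of the 47 genes, and 11 of these (28.2%) had the motif, beside 11.6% of tested genes and 8.09% of all genes with a promoter. Of the further assembly factors with a promoter, 13 of 87 (14.9%) had it. The motif was in 6 of 13 small subunit genes, 3 of 16 large subunit genes, both export genes and none of 8 snoRNP genes. Stretches with the motif are shown for all 11 genes that hold it, 5′ to 3′ on the strand of the gene with the motif in capitals. The motif is a feature that the choice of the genes did not use.

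Nop2, chr6:125131733-125131882, plus strand: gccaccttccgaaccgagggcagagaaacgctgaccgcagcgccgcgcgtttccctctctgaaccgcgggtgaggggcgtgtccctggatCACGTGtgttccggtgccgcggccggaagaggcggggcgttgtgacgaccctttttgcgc
Nmd3, chr3:69721905-69722054, plus strand: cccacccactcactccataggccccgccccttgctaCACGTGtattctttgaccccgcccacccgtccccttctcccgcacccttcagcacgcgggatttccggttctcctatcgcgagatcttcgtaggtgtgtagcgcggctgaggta
Nol11, chr11:107189382-107189531, minus strand: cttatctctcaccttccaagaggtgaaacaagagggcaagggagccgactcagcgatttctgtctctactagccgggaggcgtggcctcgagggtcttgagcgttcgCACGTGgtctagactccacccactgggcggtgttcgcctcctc
Pes1, chr11:3963965-3963994, plus strand: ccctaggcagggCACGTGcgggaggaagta
Wdr43, chr17:71616220-71616249, plus strand: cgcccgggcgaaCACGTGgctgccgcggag
Utp4, chr8:106893643-106893672, plus strand: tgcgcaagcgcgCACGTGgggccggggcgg
Tsr2, chrX:151096511-151096540, minus strand: ctgcctgggagcCACGTGatctaaacggat
Ltv1, chr10:13193092-13193121, minus strand: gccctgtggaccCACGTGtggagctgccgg
Utp20, chr10:88826765-88826794, minus strand: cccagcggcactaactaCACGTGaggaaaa
Tsr1, chr11:74898092-74898121, plus strand: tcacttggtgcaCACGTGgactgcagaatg
Mdn1, chr4:32657139-32657168, plus strand: caacgtgaattccttcacCACGTGtgtgtc

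Positions were counted from the start site of the RefSeq promoter, with bases before it negative. This site can differ from the GENCODE start of the gene. The first base of the motif lay at -60 in Nop2, -114 in Nmd3 and -43 in Nol11, and at 3 in Pes1, 18 in Wdr43, 16 in Utp4 and Tsr2, 29 in Ltv1, 38 in Utp20, 25 in Tsr1 and 39 in Mdn1. The first 7 genes shown fell, and Ltv1, Utp20, Tsr1 and Mdn1 did not pass with all libraries. The median log2 fold change was -0.41 for the 11 genes with the motif and -0.57 for the 28 without it, and -0.52 and -0.42 without PBS replicate 3, so the order of the medians turned with that library. A match to these letters is a description of the sequence, not a bound site.

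Some of the assembly factors also carry snoRNAs in their introns. In the annotation 7 of the 47 genes (14.9%) were hosts of intronic snoRNAs, beside 1.62% of 12316 tested protein-coding genes. These were Nop56 with 5 snoRNAs, Nop58 with 4, Ncl, Wdr43 and Gnl3 with 3 each, Tsr1 with 2 and Dkc1 with 1. Levels of the snoRNAs themselves were not compared, since none had more than 20 reads in a library. The 10 snoRNAs that overlap an exon of an annotated transcript of the host had 0 reads in every library, and 10 of the other 11 had reads. RNA was selected for poly(A) tails, and the part of this selection and of the counting of overlapping reads was not tested. The median log2 fold change was -0.53 over the 7 hosts and -0.55 over the other 40 genes.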

How the data were processed

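RNA was poly(A)-selected and made into unstranded libraries, per the labels. The authors deposited a table of normalized counts for 55487 genes, a signal in which each library's gene counts were divided by 1 size factor. Dividing by the size of its smallest step gave whole numbers for 100% of each library's values (within 0.01 reads), so whole reads were recovered. The methods of the study describe stranded libraries and name nf-core/rnaseq with STAR and RSEM, while the submitters' processing notes list HISAT2 2.2.1, SAMtools, featureCounts, Subread and edgeR on GRCm38. Which of these made the table is not given in the sources used here. Gene positions, exons and lengths came from GENCODE M21 on GRCm38.

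Genes with a mean of at least 10 were tested by limma (version 3.58.1, R 4.3.3) on log2(normalized count + 1), with the prior variance following intensity, no replicate block, and adjustment over all genes tested; fold changes are on that scale. edgeR (version 4.0.16) and DESeq2 (version 1.42.0) were run on recovered reads as alternatives. The other alternatives were quantile normalization, median-centred ratios, pseudocounts of 0.1 and 10, a minimum mean of 50 or none, a replicate block, no intensity trend, an adjusted p under 0.05, removal of the transcript length trend and each library left out. Levels per coding length were added after seeing the data. No column was left out. The limma fit was tested on simulated counts with known changes, larger than those fitted for the members. The other steps were not tested in this way.

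The members and lists were chosen with earlier results of these data known, so counts and medians of a list carry no test. Named genes were all 47 members, Brd9, Myc, Hoxa9, Meis1 and the highest and lowest of each role of the further factors; others were chosen after their values were seen. Meis1 had means of 3620 in PBS and 224 in pIpC. T and NK cell markers summed to 199 to 324 in PBS and 4103 to 4676 in pIpC libraries (7 of 7 tested higher), erythroid markers to 1864 to 3089 and 8447 to 11171, and macrophage and stromal markers to 10553 to 14876 and 6742 to 8811 (7 higher and 3 lower of 11 tested). Genes with similar sequence over most of a member's transcript held at most 3.52% of the member's mean, for Fbl. Of their summed mean of 127.3 for Fbl, 126.8 was counted on Tulp4, which matches Fbl over 690 of 1197 bases. Whether these reads came from the matching stretch was not tested.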

Additional observations from a re-analysis of the deposited data

How the results depend on the processing

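Over 18 alternatives, 745 of 846 values of single members kept their direction and their side of the threshold, 52 lost the call, 36 gained one and 13 turned direction, in 5 members whose change had not passed. Leaving out single libraries, the members that fell ranged from 16 to 39, those that rose from 0 to 1 and the further assembly factors that fell from 21 to 66. Genes that passed in either direction, over all tested, ranged from 4650 to 9783. The log2 fold changes then ranged from -0.31 to 0.11 for Heatr1, -0.58 to 0.26 for Tsr1, -0.10 to 0.37 for Wdr18, -0.32 to 0.93 for Mdn1 and -0.25 to 0.08 for Nvl. With the transcript length trend removed Wdr18 was at -0.065 and Mdn1 at -0.15. The median of the small subunit genes was -0.63 under quantile normalization, which moved the median of all genes from 0.015 to -0.12, and -0.66 with the length trend removed, against -0.52; the cause was not tested. A stricter adjusted p under 0.05 left 21 members, while 5367 genes passed in either direction over all tested. The share of all genes that fell was not counted at that threshold.

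With a replicate block 22 members fell, and the calls on Npm1, Utp4, Nol11, Rrs1, Las1l and Tsr2 were lost; Brd9 stayed at 0.20 (limma, adjusted p = 0.375), 6095 genes passed in all and 37 further assembly factors fell. Deviations of same-numbered libraries from their group means correlated at -0.117, 0.143 and 0.041. With 3 libraries a group and PBS replicate 3 apart from the others, these values cannot decide whether the numbers pair the libraries. Why the calls were lost was not tested. With 3 libraries a group, small changes of members with a wide spread in PBS could not be told from 0.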
